A study of Homo sapiens with 16 samples.

Results

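MYC, genes of related and partner proteins, and the neighbouring noncoding gene PVT1 are treated here as a network of 10 genes. They were chosen by name from the authors' normalized count table: MYC, MYCN, PVT1, MAX, MXD1, MXD4, MXI1, MNT, MLX and MGA. Each matched 1 gene identifier among the 58302 genes in the count files, of which 40888 had at least 1 read. Polyadenylated RNA was sequenced from VCaP, a human prostate cancer cell line that carries a fusion of TMPRSS2 to ERG, in 8 groups of 2 libraries. Ver cells had grown with 1 µM enzalutamide, which blocks the androgen receptor, for 4 months, and Vc cells with ethanol for 4 months. All cells were then starved of steroids for at least 48 h in medium with stripped serum. Each line next received 1 nM of the androgen dihydrotestosterone (DHT) plus 1 µM enzalutamide, 1 nM DHT, 1 µM enzalutamide, or control medium for 24 h. Ver and Vc are 1 line each. The labels do not say that the 2 libraries of a group came from separate cultures, so p-values measure the spread between these libraries, which may be technical. The library descriptions end in L002 for every Ver library and L008 for every Vc library, so line and that label cannot be told apart.

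MYC is a transcription factor that drives ribosome production, metabolism and division. It binds E-box DNA only as a pair with MAX, while MXD1, MXD4, MXI1, MNT and MGA also pair with MAX and repress many of the same genes. MLX is a relative of MAX that pairs with the nutrient sensors MLXIP and MLXIPL, and with some of the repressors. PVT1 is a long noncoding RNA gene next to MYC on chromosome 8, and in prostate cells androgens are known to change MYC transcription.

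Each library held between 8155244 and 13273523 counts in genes, and 22553 genes passed the filter on low counts. Levels are given as CPM, counts scaled to the size of each library after TMM normalization. Libraries of one group differed by more than counting noise, with a chi-square per degree of freedom of 2.45 to 3.65. The summed luminal prostate markers, keratins KRT8 and KRT18 among them, were at 2385 to 4610 CPM, and the androgen-driven TMPRSS2, KLK3 and FKBP5 rose with DHT in both lines. Summed basal markers were at 0 to 2.30 CPM, endothelial markers at 0 to 3.35 CPM and immune markers at 0 to 1.53 CPM; KRT5 had no read in any library. Summed neuroendocrine markers were at 38.1 to 83.8 CPM, with 83.8 and 67.4 CPM in Ver with both compounds, against 43.8 and 43.3 CPM in Ver control, and 66.9 and 62.9 CPM in Vc with both compounds, against 40.0 and 44.5 CPM in Vc control. Of the 3 that could be tested, SYP and INSM1 were higher with both compounds than in control in each line. Summed stromal markers were at 2.05 to 83.6 CPM. Without DHT most of that sum was LUM, which fell with DHT as MYC did. LUM had 0.803 and 1.2 CPM in Ver cells with DHT, against 57.2 and 49.6 CPM in Ver control cells; the part of these markers in the results was not tested. Of the other stromal genes, COL1A1 had 330 reads over all 16 libraries, with at most 31 in 1 library. COL1A2, COL3A1 and DCN had 1, 5 and 11 reads over all 16 libraries. In these bulk samples, fewer cells of a type and less RNA per cell cannot be told apart.

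Of the 10 network genes, 9 could be tested. MYCN, a MYC relative of neural tumours, had 2 reads in all, 1 in Ver with DHT plus enzalutamide and 1 in Ver with enzalutamide. With DHT, 7 of the 9 changed in Ver and 7 of 9 in Vc, at a Benjamini-Hochberg adjusted p under 0.05 in edgeR's quasi-likelihood test. Over all genes tested, 44.1% were called in Ver and 44.3% in Vc. Calls in both directions were made among the 9: MLX, MXD1 and MNT were higher and MYC, PVT1, MXI1 and MXD4 lower in Ver, while MLX and MXD1 were higher and MYC, PVT1, MXI1, MXD4 and MGA lower in Vc. The median log2 change of the 9 was 0.07 in Ver and -0.14 in Vc, beside -0.04 and -0.04 over all genes. Scaling by library totals, in place of TMM, moved the median of all genes by -0.19 in Ver and -0.17 in Vc, and the median of the 9 was then -0.12 in Ver and -0.31 in Vc. The share of DHT calls that were higher was then 32.0% in Ver and 34.4% in Vc, beside 48.0% and 49.2% with TMM.

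**Figure D1:**
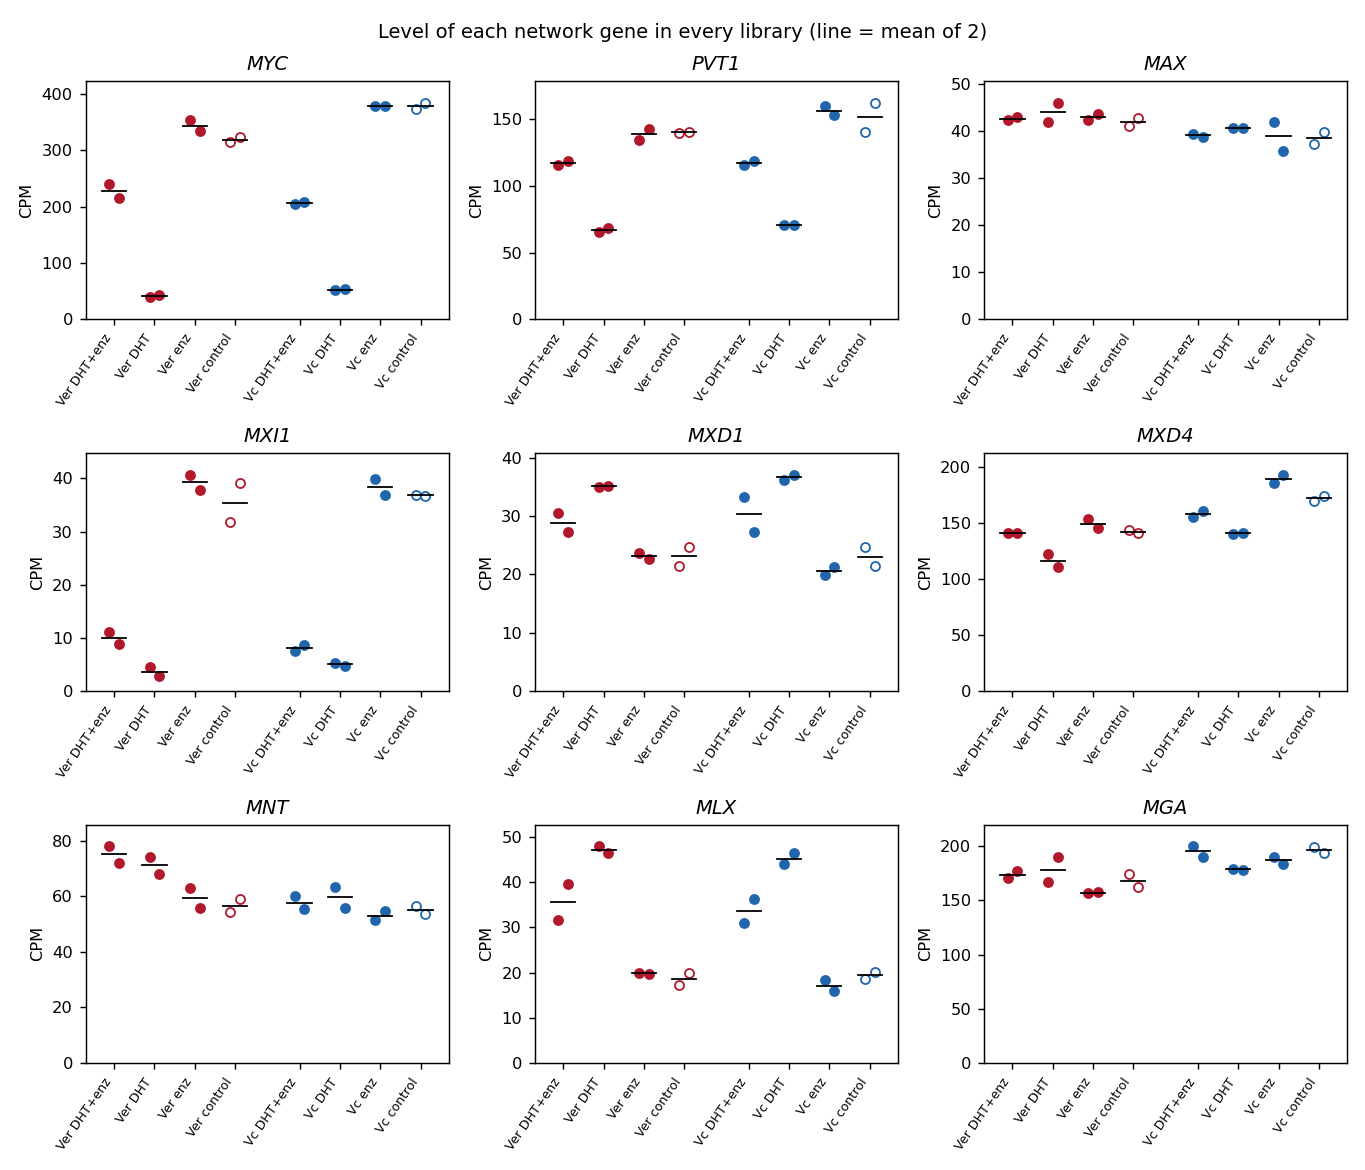
Level of the 9 tested network genes in CPM on a linear axis from 0, in every library of the 8 groups; each point is 1 library, the short line is the mean of 2, Ver is red, Vc is blue, and control libraries are open. MYC sits between 40.3 and 54.2 CPM in the 4 libraries with DHT alone and at 204 CPM or more in the other 12, MXI1 is low wherever DHT was given, and MAX stays between 35.7 and 46.0 CPM.

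MYC was lower with DHT in each line, by 7.64-fold in Ver and 7.18-fold in Vc. It had 40.3 and 43.1 CPM in Ver cells with DHT, against 315 and 323 CPM in Ver control cells. In Vc it had 51.3 and 54.2 CPM with DHT, against 372 and 384 CPM in control cells. The DHT libraries were below all others of their line, with no overlap. On the log2 scale the change was -2.93 (SE 0.065, adjusted p = 5.54e-85, edgeR) in Ver and -2.84 (SE 0.062, adjusted p = 3.71e-85) in Vc. The difference between the lines in the DHT effect was -0.09 (SE 0.090, adjusted p = 0.761) and was not called.

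MYC was higher with DHT plus enzalutamide than with DHT alone in each line, and by more in Ver. MYC had 239 and 215 CPM in Ver cells with both compounds and 204 and 208 CPM in Vc cells with both. These libraries lay between the DHT and the control libraries of their line. The log2 change against DHT alone was 2.45 (SE 0.066, adjusted p = 6.94e-73, edgeR) in Ver and 1.97 (SE 0.063, adjusted p = 4.99e-63) in Vc. The difference between these effects, Ver minus Vc, was 0.48 (SE 0.091, adjusted p = 0.000281); 1.29% of all genes were called in that comparison, and MYC was the 1 network gene among them. MYC was called in all 14 alternatives to that test, with adjusted p from 4.36e-05 to 0.0241. Each line's effect was measured within libraries of 1 description label.

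MYC with both compounds was still below its control level. The log2 change against control was -0.49 (SE 0.055, adjusted p = 7.00e-14, edgeR) in Ver and -0.88 (SE 0.054, adjusted p = 1.59e-32) in Vc. As a share of the log2 change that DHT alone gave, 16.6% was left in Ver and 30.8% in Vc. These comparisons share their control and DHT libraries with those above.

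With enzalutamide alone MYC was at 353 and 333 CPM in Ver, against 315 and 323 CPM in Ver control. In Vc the levels were 379 and 378 CPM with enzalutamide, against 372 and 384 CPM in control. The Ver libraries lay above their controls and the Vc libraries lay between theirs. In neither line was MYC called, with a log2 change of 0.11 (SE 0.053, adjusted p = 0.540, edgeR) in Ver and 0.00 (SE 0.052, adjusted p = 1) in Vc. None of the 9 genes was called for enzalutamide alone by edgeR or by DESeq2. DESeq2 gave an adjusted p to 11622 genes in Ver and 3314 in Vc, and could not call a gene outside these. At an unadjusted p under 0.05 in edgeR there were 0 in Ver and 1, MXD4, in Vc. Over all genes, 1.13% were called in Ver and 0.537% in Vc.

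PVT1 followed MYC in direction with smaller changes. It had 65.6 and 68.5 CPM in Ver cells with DHT, against 139 and 141 CPM in Ver control cells. The Vc levels were 71.0 and 70.7 CPM with DHT, against 141 and 162 CPM in control cells. DHT libraries and control libraries did not overlap. The fall was 2.09-fold in Ver (log2 -1.06, SE 0.068, adjusted p = 1.21e-31, edgeR) and 2.13-fold in Vc (log2 -1.09, SE 0.067, adjusted p = 1.52e-33). With both compounds PVT1 was at 116 and 119 CPM in Ver and at 116 and 119 CPM in Vc. It rose relative to DHT alone by 0.81 (SE 0.069) in Ver and 0.73 (SE 0.068) in Vc on the log2 scale. The difference between the lines was 0.08 for PVT1 (SE 0.097, adjusted p = 0.814) and was not called. Against control PVT1 was still lower with both compounds, by 0.25 (SE 0.065) in Ver and 0.37 (SE 0.063) in Vc. The counting did not use strand and dropped reads that fell on exons of more than 1 gene; exons of PVT1 overlap those of the small genes RNU4-25P and AC103705.1, which had 419 and 212 reads in all; PVT1 had 21205.

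MAX, the partner that MYC and its repressors need, had 35.7 to 46.0 CPM over all 16 libraries and was called in no comparison by edgeR. MAX had 41.9 and 46.0 CPM in Ver with DHT, against 41.1 and 42.7 CPM in Ver control, and these overlapped. It had 40.6 and 40.5 CPM in Vc with DHT, against 37.2 and 39.7 CPM in Vc control, which did not overlap. Its log2 change with DHT was 0.07 (SE 0.099, adjusted p = 0.628, edgeR) in Ver and 0.08 (SE 0.10, adjusted p = 0.568) in Vc. With library totals those values were -0.12 and -0.09, also not called. Exons of MAX overlap those of the antisense gene AL139022.1, which had 803 reads against 7209 for MAX.

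MXI1, a repressor of the MXD family, was also lower with DHT, by 9.64-fold in Ver and 7.23-fold in Vc. It had 4.46 and 2.86 CPM in Ver cells with DHT, against 31.8 and 39.1 CPM in Ver control cells. In Vc it had 5.34 and 4.78 CPM with DHT, against 36.9 and 36.7 CPM in control cells. Every library with DHT was below every library without it. The log2 change was -3.27 (SE 0.190, adjusted p = 3.18e-40, edgeR) in Ver and -2.85 (SE 0.171, adjusted p = 3.14e-37) in Vc.

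With both compounds MXI1 lay between its DHT and control levels. It had 11.1 and 8.84 CPM in Ver and 7.62 and 8.63 CPM in Vc, so that 56% of the log2 DHT change was left in Ver and 76.4% in Vc. Against DHT alone MXI1 rose by 1.44 (SE 0.209, adjusted p = 9.66e-10, edgeR) in Ver and by 0.67 (SE 0.193, adjusted p = 0.00384) in Vc on the log2 scale. The Vc call was lost without Vc DHT plus enzalutamide replicate 2 (0.59, adjusted p = 0.0647) and without Vc DHT replicate 2 (0.60, adjusted p = 0.0557). The difference between the lines was 0.76 (SE 0.284, adjusted p = 0.190) and was not called.

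MXD1, a repressor induced when many cell types stop dividing, rose with DHT in each line. It had 35.0 and 35.2 CPM in Ver cells with DHT, against 21.4 and 24.7 CPM in Ver control cells. Vc cells had 36.2 and 37.1 CPM with DHT, against 24.6 and 21.4 CPM in control cells. The groups did not overlap. On the log2 scale the change was 0.60 (SE 0.122, adjusted p = 9.78e-06, edgeR) in Ver and 0.67 (SE 0.120, adjusted p = 5.77e-07) in Vc. Exons of MXD1 overlap those of SNRNP27, a splicing gene on the same strand with 2171 reads against 4858 for MXD1. The log2 DHT change of SNRNP27 was 0.62 (adjusted p = 0.00145) in Ver and 0.08 (adjusted p = 0.748) in Vc.

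MXD1 was between its DHT and control levels when both compounds were given. It had 30.5 and 27.3 CPM in Ver and 33.3 and 27.3 CPM in Vc, and the change against DHT alone was called in neither line (-0.28, adjusted p = 0.0725, in Ver and -0.27, adjusted p = 0.0849, in Vc). Without Vc DHT plus enzalutamide replicate 1 that Vc value was -0.43 (adjusted p = 0.0305). Against control it was 0.32 (SE 0.126, adjusted p = 0.0502, edgeR) in Ver and 0.40 (SE 0.121, adjusted p = 0.00609) in Vc. The Vc value was 0.24 (adjusted p = 0.286) without Vc DHT plus enzalutamide replicate 1 and 0.31 (adjusted p = 0.136) without Vc control replicate 2, and the Ver value was 0.43 (adjusted p = 0.0385) without Ver control replicate 2.

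Stretches upstream of 3 network genes are shown because they hold the E-box CACGTG, the site that pairs of MYC and MAX, and of the repressors and MAX, bind. Of the 8 network genes in the RefSeq promoter table (GRCh38.p14), 3 held CACGTG in the 250 bases before the transcription start, which is 37.5%. Of all 27305 genes in the table, 2110 held it, which is 7.73%. The motif reads the same on both strands and is in capitals. The stretches are written 5′ to 3′ on the strand of the gene and were taken from outside its GENCODE 29 span.
MXD4, chr4:2262295-2262359, minus strand: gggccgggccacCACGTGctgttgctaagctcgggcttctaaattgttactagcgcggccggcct
MNT, chr17:2401201-2401300, minus strand: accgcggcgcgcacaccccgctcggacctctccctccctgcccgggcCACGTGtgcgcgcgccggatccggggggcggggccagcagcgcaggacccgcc
MLX, chr17:42566968-42567067, plus strand: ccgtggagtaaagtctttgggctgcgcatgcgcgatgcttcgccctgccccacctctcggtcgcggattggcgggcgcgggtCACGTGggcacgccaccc
Counted from the RefSeq start, the motif begins 238 bases before that of MXD4, 193 before that of MNT and 50 before that of MLX. The sequence AGAACA or its reverse complement TGTTCT, which androgen and glucocorticoid receptors bind, was in the same window of MXI1 alone, 1 of 8 network genes (12.5%) and 4046 of all genes (14.8%). MAX, MXD1, MGA and MYCN held neither motif in this window. A match is a description of these letters and not a measured site.

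MXD4, the repressor of highest level per length, fell slightly with DHT. It had 122 and 111 CPM in Ver cells with DHT, against 144 and 141 CPM in Ver control cells. Vc cells had 140 and 141 CPM with DHT, against 169 and 174 CPM in control cells. The groups did not overlap in either line. The log2 change was -0.29 (SE 0.061, adjusted p = 2.20e-05, edgeR) in Ver and -0.29 (SE 0.059, adjusted p = 1.29e-05) in Vc, and -0.48 and -0.46 with library totals. With both compounds MXD4 rose relative to DHT alone by 0.28 (SE 0.062, adjusted p = 0.000129) in Ver. The Vc rise of 0.17 (SE 0.060, adjusted p = 0.0276) was lost without any 1 of the 4 Vc libraries compared, with adjusted p from 0.0613 to 0.203, and with DESeq2.

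MNT, a repressor found in most dividing and resting cells, rose with DHT in Ver. It had 74.0 and 68.2 CPM in Ver cells with DHT, against 54.2 and 59.0 CPM in Ver control cells. Vc cells had 63.5 and 55.7 CPM with DHT, against 56.6 and 53.5 CPM in control cells. The groups overlapped in Vc and not in Ver. On the log2 scale the change was 0.33 (SE 0.084, adjusted p = 0.000497, edgeR) in Ver and 0.12 (SE 0.084, adjusted p = 0.272) in Vc, and with library totals 0.14 (adjusted p = 0.174) and -0.06 (adjusted p = 0.638). MNT was also above control in Ver when both compounds were given. It then had 78.0 and 72.1 CPM, 0.41 above Ver control on the log2 scale (SE 0.084, adjusted p = 4.30e-05).

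MGA, the large member that also binds T-box sites and sits in a Polycomb complex, changed little. It had 167 and 190 CPM in Ver cells with DHT, against 174 and 162 CPM in Ver control cells. Vc cells had 179 and 178 CPM with DHT, against 200 and 194 CPM in control cells. The Ver groups overlapped and the Vc groups did not. The log2 change was 0.09 (SE 0.058, adjusted p = 0.244, edgeR) in Ver and -0.14 (SE 0.057, adjusted p = 0.0427) in Vc. The Vc call was lost without any 1 of its 4 libraries (adjusted p from 0.0881 to 0.245) and with DESeq2 (adjusted p = 0.11). Without Ver DHT replicate 1, the Ver value was 0.18 (adjusted p = 0.0305) and the difference between the lines was 0.31 (adjusted p = 0.0289), beside 0.22 (adjusted p = 0.160) with all libraries.

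MLX, the alternative partner that does not bind MYC, rose 2.55-fold with DHT in Ver and 2.33-fold in Vc. It had 48.0 and 46.5 CPM in Ver cells with DHT, against 17.2 and 19.9 CPM in Ver control cells. In Vc it had 44.1 and 46.4 CPM with DHT, against 18.6 and 20.2 CPM in control cells. No DHT library overlapped a library without DHT. On the log2 scale the change was 1.35 (SE 0.122, adjusted p = 5.69e-20, edgeR) in Ver and 1.22 (SE 0.119, adjusted p = 7.27e-18) in Vc. Exons of MLX overlap those of PSMC3IP on the other strand, which had 639 reads against 5183 for MLX and a log2 DHT change of 0.27 (adjusted p = 0.531) in Ver and 0.53 (adjusted p = 0.153) in Vc.

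Enzalutamide lowered MLX only in part. MLX had 31.7 and 39.6 CPM in Ver with both compounds and 31.0 and 36.2 CPM in Vc, all below the DHT libraries and above the controls. Against DHT alone it fell by 0.41 (SE 0.114, adjusted p = 0.00297, edgeR) in Ver and by 0.43 (SE 0.113, adjusted p = 0.00163) in Vc on the log2 scale. Each call rested on 1 library: without Ver DHT plus enzalutamide replicate 1 the value was -0.25 (adjusted p = 0.216), and without Vc DHT plus enzalutamide replicate 1 it was -0.32 (adjusted p = 0.107). MLX was still 0.94 (SE 0.126) above control in Ver and 0.79 (SE 0.121) above it in Vc.

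**Figure D2:**
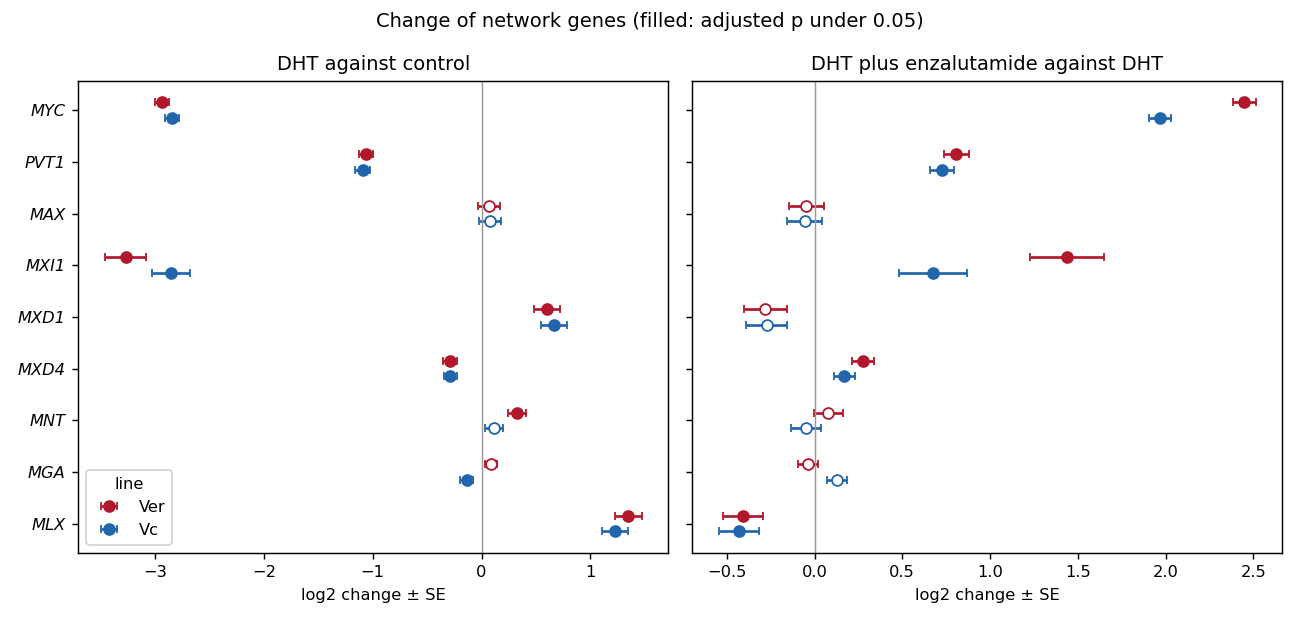
Log2 change of the 9 network genes on the horizontal axis, for DHT against control on the left and DHT plus enzalutamide against DHT on the right; points are edgeR estimates, bars are 1 SE, filled points have an adjusted p under 0.05, Ver is red and Vc is blue. MYC and MXI1 lie near -3 with DHT, MLX lies at 1.22 and 1.35, and in the right panel MYC is at 2.45 in Ver and 1.97 in Vc.

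Enzalutamide on top of DHT changed 5 of the 9 genes in Ver and 5 in Vc: MYC, PVT1, MXI1 and MXD4 were higher and MLX lower in each. Over all genes, 26.9% were called in Ver and 22.4% in Vc. Against control, DHT plus enzalutamide left 5 of 9 called in each line, beside 22.7% of all genes in Ver and 28.5% in Vc. In Ver these were MLX and MNT, higher, and MYC, PVT1 and MXI1, lower. In Vc they were MLX and MXD1, higher, and MYC, PVT1 and MXI1, lower.

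Per kilobase of annotated exons, MYC was the most abundant network gene in control cells and was below MXD4 with DHT in both lines. It averaged 13.9 CPM per kb in Ver with DHT, against 106 in Ver control. In Vc it averaged 17.6 CPM per kb with DHT, against 126 in control. With DHT in Ver its level was below that of MXD4, at 16.5 CPM per kb, and near those of PVT1 at 12.2 and MLX at 11.1. In Vc with DHT, MXD4 was at 19.9, PVT1 at 12.9 and MLX at 10.6 CPM per kb. Exon lengths are those of all annotated exons together, so they overstate the length of a gene that uses few of them.

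The ratio of MYC to MAX, per length, was 1.42 and 1.38 in Ver with DHT, against 11.3 and 11.2 in Ver control. It was 1.87 and 1.97 in Vc with DHT, against 14.8 and 14.3 in Vc control. MYC relative to the sum of MXD1, MXD4, MXI1, MNT and MGA was 0.322 and 0.356 in Ver with DHT, against 2.24 and 2.23 in Ver control. In Vc it was 0.387 and 0.416 with DHT, against 2.31 and 2.41 in control. The sum of repressors itself was 41.7 and 40.4 CPM per kb in Ver with DHT, against 46.8 and 48.2 in Ver control, a much smaller difference than that of MYC. With both compounds the ratio to the repressors was 1.74 and 1.61 in Ver and 1.45 and 1.5 in Vc. These are ratios of RNA and are given as a description, with no test.

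**Figure D3:**
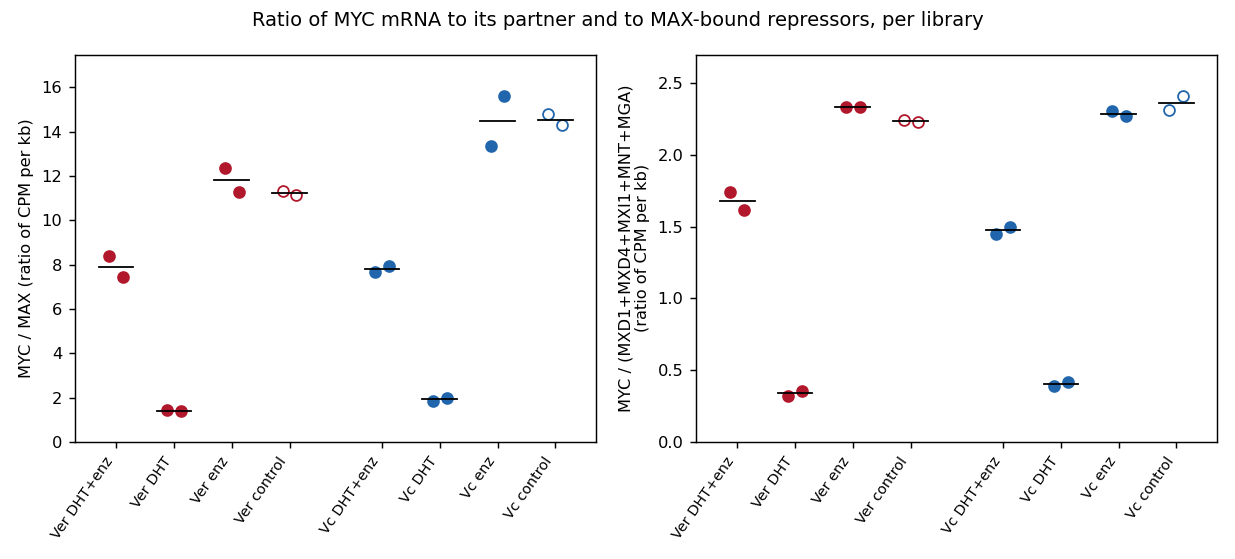
Ratio of MYC to MAX (left) and of MYC to the sum of MXD1, MXD4, MXI1, MNT and MGA (right), from CPM per kb on linear axes from 0; each point is 1 library, short lines are means of 2, Ver is red, Vc is blue, and controls are open. The 4 libraries with DHT alone lie between 1.38 and 1.97 on the left and between 0.322 and 0.416 on the right, below all others.

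Between the lines in control medium, Ver had less MYC, MXD4 and MGA than Vc. This was 3 of 9 genes, beside 18.9% of all genes. MYC had 315 and 323 CPM in Ver, against 372 and 384 CPM in Vc, with no overlap (log2 -0.25, SE 0.053, adjusted p = 0.000105, edgeR). MXD4 had 144 and 141 CPM in Ver, against 169 and 174 CPM in Vc (-0.27, SE 0.059, adjusted p = 0.000154). MGA had 174 and 162 CPM in Ver, against 200 and 194 CPM in Vc (-0.23, SE 0.058, adjusted p = 0.00138), and its value was -0.17 (adjusted p = 0.116) without Ver control replicate 2.

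With both compounds the order of the lines for MYC was the other way round. Both Ver libraries lay above both Vc libraries for MYC, with a log2 difference of 0.14 (SE 0.055, adjusted p = 0.0534, edgeR) that missed the threshold. It was called in 5 of 10 alternatives, with adjusted p from 0.00664 (library totals, 0.19) to 0.619 over the 10. Among these were DESeq2 (0.15, adjusted p = 0.0411) and the fit without Ver DHT plus enzalutamide replicate 2 (0.22, adjusted p = 0.0121), both called. The value was 0.07 (adjusted p = 0.619) without replicate 1 of that group. MNT was higher in Ver with both compounds, at 78.0 and 72.1 CPM, than in Vc, at 60.0 and 55.3 CPM (0.38, SE 0.083, adjusted p = 0.000149). In all, 3 of 9 genes were called there, MNT higher and MGA and MXD4 lower, beside 20.3% of all genes. The calls of MGA (-0.17, adjusted p = 0.0255) and MXD4 (-0.16, adjusted p = 0.0370) were lost with DESeq2. MGA was lost without Vc DHT plus enzalutamide replicate 1 or without either Ver library (adjusted p 0.0513 to 0.283), and MXD4 without any 1 of the 4 libraries (adjusted p 0.0811 to 0.236).

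The DHT effect differed between the lines for none of the 9 network genes by edgeR or DESeq2. DESeq2 gave an adjusted p to 12059 genes for that difference, and could not call a gene outside these. At an unadjusted p under 0.05 in edgeR there was 1, MGA. Over all genes, 2.32% were called by edgeR. The enzalutamide effect differed for none of the 9 either by edgeR or DESeq2, with 0 at an unadjusted p under 0.05, beside 0.0222% of all genes. For MNT, called for DHT in Ver and not in Vc, the difference was 0.21 (SE 0.12, adjusted p = 0.488).

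Of 4 further network genes, MLXIP and MLXIPL, the glucose-sensing partners of MLX, fell with DHT in each line. MLXIP had 334 and 331 CPM in Ver with DHT, against 386 and 422 CPM in Ver control, and 284 and 295 CPM in Vc with DHT, against 350 and 343 CPM in Vc control. Its log2 change was -0.28 (SE 0.051, adjusted p = 1.01e-06, edgeR) in Ver and -0.26 (SE 0.052, adjusted p = 7.37e-06) in Vc. MLXIPL had 1.34 and 1.02 CPM in Ver with DHT, against 3.69 and 3.22 CPM in Ver control, with a log2 change of -1.54 (SE 0.43) in Ver and -1.65 (SE 0.44) in Vc; the Vc value was -1.16 (adjusted p = 0.0668) without Vc DHT replicate 1. MXD3, a repressor tied to S phase, had a log2 change of 0.20 (adjusted p = 0.376) in Ver and fell by 0.54 (adjusted p = 0.00451) in Vc. Without Vc control replicate 2 the Vc value of MXD3 was -0.37 (adjusted p = 0.150), and without Vc DHT replicate 2 it was -0.38 (adjusted p = 0.137). MYCL, a MYC relative, had 2.04 and 4.65 CPM in Ver control, against 1.15 and 1.53 CPM in Vc control (log2 1.33, SE 0.40, adjusted p = 0.00655). MYCL was at 1.14 (adjusted p = 0.109) without Vc control replicate 1 and at 0.61 (adjusted p = 0.538) without Ver control replicate 2.

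Most genes known to be raised by MYC for growth and ribosome production fell with DHT. Of 56 tested, 38 fell and 8 rose in Ver, and 43 fell and 4 rose in Vc. Of all genes, 22.9% fell in Ver and 22.5% in Vc. The list's median log2 change was -0.43 in Ver and -0.55 in Vc, and -0.61 and -0.72 with library totals. NPM1, a nucleolar chaperone, fell by 1.0 (SE 0.054) in Ver and by 1.30 (SE 0.054) in Vc. With enzalutamide on top of DHT, 34 rose and 3 fell in Ver, and 39 rose and 2 fell in Vc, beside 13.7% and 11.5% of all genes that rose.

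Not all of these targets went with MYC. ODC1, the first enzyme of polyamine synthesis and a classical MYC target, rose by 1.6 (SE 0.064, adjusted p = 3.34e-52, edgeR) in Ver and by 1.63 (SE 0.064, adjusted p = 3.53e-53) in Vc on the log2 scale with DHT. ODC1 had 240 and 235 CPM in Ver with DHT, against 79.0 and 77.9 CPM in Ver control. SHMT2, a mitochondrial enzyme of serine use, rose by 1.61 (SE 0.053) in Ver and 1.71 (SE 0.054) in Vc. SRM, the spermidine synthase, which acts after ODC1, rose by 0.62 in Ver and 0.40 in Vc; it is named here after its values were seen.

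Some growth genes had a higher log2 change with DHT in Ver than in Vc, which for NCL and NPM1 was a smaller fall. The DHT effect differed between the lines for 7 of the 56, all in this direction, beside 0.891% of all genes called higher. NCL, the nucleolar protein nucleolin, fell by 0.72 in Ver and 1.25 in Vc (difference 0.53, SE 0.080, adjusted p = 4.53e-07, edgeR). HSPD1, a mitochondrial chaperone, had a change of 0.04 in Ver and fell by 0.36 in Vc (0.40, SE 0.072, adjusted p = 3.51e-05). The others were MYBBP1A (0.45), GNL3 (0.39), NPM1 (0.30), DDX21 (0.30) and DDX18 (0.42). These 7 were named after their values were seen. NPM1 was lost without Vc control replicate 1, Vc DHT replicate 2 or replicate 2 of Ver control or Ver DHT, with adjusted p from 0.0767 to 0.153. DDX21 and DDX18 were lost with DESeq2 and without any 1 of Vc control replicate 1, either Vc DHT library, Ver control replicate 2 or Ver DHT replicate 2. Their adjusted p then ran from 0.0714 to 0.365 for DDX21 and from 0.0766 to 0.370 for DDX18.

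**Figure D4:**
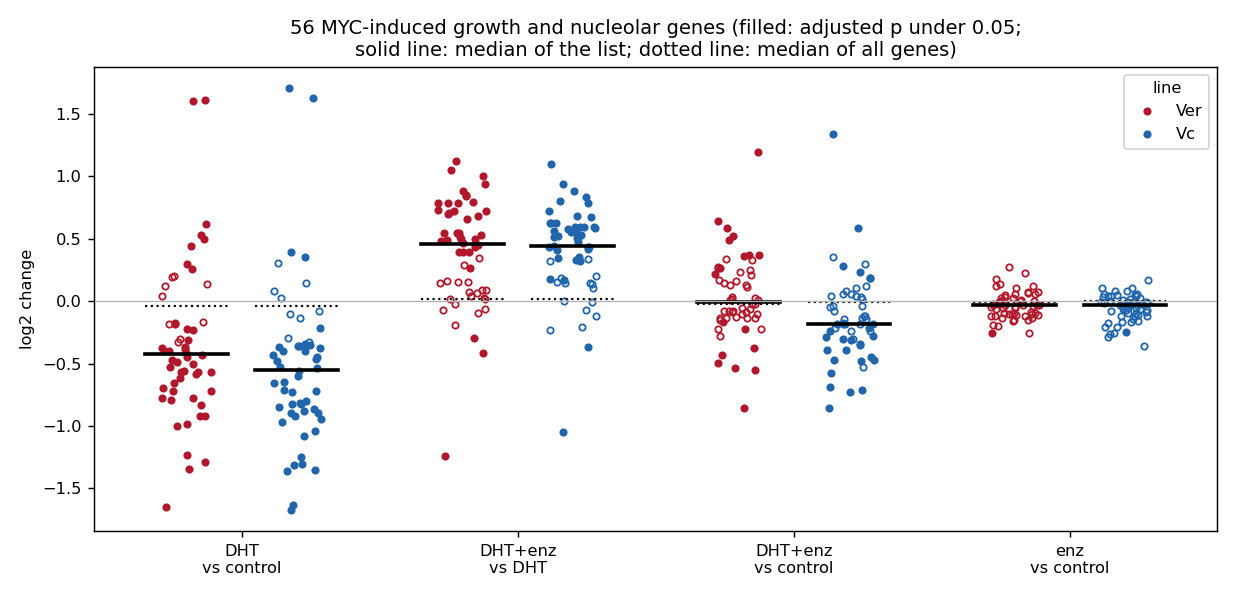
Log2 change of the 56 MYC-induced growth and nucleolar genes on the vertical axis in 4 comparisons; each point is 1 gene, filled with an adjusted p under 0.05, Ver is red, Vc is blue, solid lines are list medians and dotted lines are medians of all genes. Medians lie at -0.43 and -0.55 for DHT against control and at 0.46 and 0.44 for DHT plus enzalutamide against DHT, and the pair of points at the top left is ODC1 and SHMT2.

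Genes of DNA replication and mitosis, which MYC activity accompanies in dividing cells, fell with DHT. Of 21 tested, 18 fell and 1 rose in Ver, and 18 fell in Vc, with a median of -1.02 in Ver and -1.0 in Vc. Of all genes, 22.9% fell in Ver and 22.5% in Vc, and 21.2% and 21.8% rose. MCM4 and MCM5, subunits of the replication helicase, fell by 2.06 and 2.50 in Ver and by 2.01 and 2.27 in Vc. MCM2, of the same helicase, fell by 2.95 (SE 0.14) in Ver and by 2.31 (SE 0.12) in Vc. E2F1, which can activate MYC transcription, fell by 1.96 (SE 0.16) in Ver and by 1.61 (SE 0.15) in Vc. Of the 12 tested regulators upstream of MYC, 6 fell and 2 rose in Ver, and 5 fell and 3 rose in Vc, with a median of -0.18 and -0.19. LEF1, a WNT pathway factor, fell by 0.77 and 0.54, and FUBP1, which binds a far upstream element of MYC, fell by 0.32 and 0.58, in Ver and Vc.

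Genes that MYC represses did not all rise as MYC fell. Of 12 tested, 7 rose and 4 fell in Ver with DHT, and 5 rose and 3 fell in Vc. Over all genes, 21.2% rose and 22.9% fell in Ver, and 21.8% rose and 22.5% fell in Vc. The median was 0.40 in Ver and 0.44 in Vc. NDRG1, a differentiation gene that is also androgen-induced, rose by 1.82 (SE 0.042) in Ver and 1.79 (SE 0.042) in Vc. CDKN1A, the cell cycle inhibitor p21, rose by 2.45 (SE 0.074) in Ver and 2.58 (SE 0.076) in Vc. THBS1, a matrix protein, fell by 1.27 (SE 0.060) in Ver and 1.26 (SE 0.054) in Vc.

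Of 3 known targets of MLX with MLXIP, 2 rose with DHT in Ver and 3 in Vc, beside 21.2% and 21.8% of all genes. ARRDC4, an arrestin that limits glucose uptake, rose by 0.75 (SE 0.15, adjusted p = 9.60e-06, edgeR) in Ver and by 0.91 (SE 0.16, adjusted p = 2.10e-07) in Vc with DHT. TXNIP, a relative of it, rose by 0.41 (SE 0.062) in Ver and 0.29 (SE 0.062) in Vc; the Vc call of TXNIP was lost with library totals (0.11, adjusted p = 0.127). KLF10 had 0.35 (adjusted p = 0.0800) in Ver and 0.49 (adjusted p = 0.0122) in Vc. The Vc value of KLF10 was 0.42 (adjusted p = 0.115) without Vc control replicate 1 and 0.46 (adjusted p = 0.0883) without Vc DHT replicate 1.

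Partners that MYC and the repressors recruit changed in either direction. Of 15 coactivator genes, 5 rose and 6 fell in Ver with DHT, and 6 rose and 5 fell in Vc, with a median of 0.05 and -0.08. Over all genes 44.1% were called in Ver and 44.3% in Vc. With library totals 3 rose and 8 fell in Ver, and 4 rose and 8 fell in Vc. KAT2A, the acetyltransferase GCN5, fell by 1.23 (SE 0.12) in Ver and 1.08 (SE 0.12) in Vc. EP300 rose by 0.27 in Ver and 0.33 in Vc, and the Ver call was lost with library totals (0.08, adjusted p = 0.190).

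Of 13 genes of the SIN3 corepressor, which MXD proteins bring to DNA, 6 rose and 2 fell in Ver and 5 rose and 2 fell in Vc. Of all genes, 21.2% rose and 22.9% fell in Ver, and 21.8% rose and 22.5% fell in Vc. The list's median was 0.16 in Ver and 0.15 in Vc, and turned to -0.03 and -0.02 with library totals. HDAC2 fell by 0.76 (SE 0.075) in Ver and 0.88 (SE 0.073) in Vc, SIN3B rose by 0.33 and 0.44, and ING1 rose by 0.40 and 0.36. In the Polycomb complex that holds MGA, 2 of 9 rose and 2 fell in Ver, and 3 rose and 2 fell in Vc, with a median of 0.09 and -0.05. CBX3 fell by 0.71 in Ver and 0.99 in Vc, RYBP rose by 0.60 and 0.79, and RING1 rose by 0.32 and 0.31. RING1 was lost with library totals in Ver (0.13, adjusted p = 0.201) and in Vc (0.14, adjusted p = 0.170).

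Of 17 tested genes that set how long MYC protein lasts, 3 rose and 4 fell in Ver with DHT, and 4 rose and 4 fell in Vc, with a median of -0.06 and -0.02, beside 44.1% and 44.3% of all genes called. SPOP, a ubiquitin ligase adaptor often mutated in prostate cancer, rose by 0.70 (SE 0.077) in Ver and 0.71 (SE 0.077) in Vc. GSK3B, the kinase that marks MYC for decay, rose by 0.51 and 0.50, and SKP2, a ligase that acts on MYC, fell by 0.91 and 0.90. These are RNA levels, and MYC protein was not measured.

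Around MYC on chromosome 8, some noncoding genes fell with DHT and others were not called. Of 18 neighbours listed, 15 were tested; 7 fell and 2 rose in Ver with DHT, and 8 fell and 2 rose in Vc, with a median of -0.67 and -0.62, beside 22.9% and 22.5% of all genes that fell. PCAT1, a prostate cancer RNA, fell by 0.97 in Ver and 0.97 in Vc, and its annotated 5′ end lies at -1179 kb from that of MYC. PRNCR1 fell by 0.67 and 0.93, CASC19 by 0.73 and 0.89, and TMEM75, inside PVT1 on the other strand, by 1.08 and 1.11. CASC8, with its 5′ end at -253 kb and a span that overlaps that of PCAT1, was called in neither line. Its log2 change was -0.42 (adjusted p = 0.246, edgeR) in Ver and -0.40 (adjusted p = 0.241) in Vc. The span of PCAT1 overlaps those of PRNCR1, CASC19 and CASC8, and of the coding genes FAM84B and POU5F1B. Without strand, a read from one of them on an exon of another counts for the other. TMEM75 shares no exon with PVT1 but lies in its span, so PVT1 reads from there also count for TMEM75. TMEM75 is among the neighbours counted as falling, and its change was not separated from that of PVT1. CASC11, which starts 1.47 kb from MYC on the other strand, had a log2 change of -1.33 (adjusted p = 0.0518, edgeR) in Ver and -2.07 (adjusted p = 0.000755) in Vc; without Vc control replicate 1 the Vc value was -1.31 (adjusted p = 0.142).

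Coding neighbours of MYC went in both directions. TRIB1, a pseudokinase gene at -2305 kb, had 127 and 113 CPM in Ver with DHT, against 698 and 725 CPM in Ver control. Vc cells had 111 and 118 CPM with DHT, against 458 and 473 CPM in control. With both compounds TRIB1 was at 486 and 447 CPM in Ver and at 285 and 278 CPM in Vc. TRIB1 was thus lowest in the 4 libraries with DHT alone, as MYC was, and fell by 2.57 (SE 0.054) in Ver and 2.02 (SE 0.055) in Vc. Its DHT effect differed between the lines by -0.55 (SE 0.077, adjusted p = 3.43e-08, edgeR), and the effect of enzalutamide on top of DHT by 0.67 (SE 0.078, adjusted p = 3.27e-10). SQLE, a cholesterol synthesis enzyme, rose by 1.07 in Ver and 1.18 in Vc, and FAM84B by 1.02 and 1.34. ASAP1, 2708 kb after MYC, fell by 1.02 in Ver and 0.62 in Vc.

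**Figure D5:**
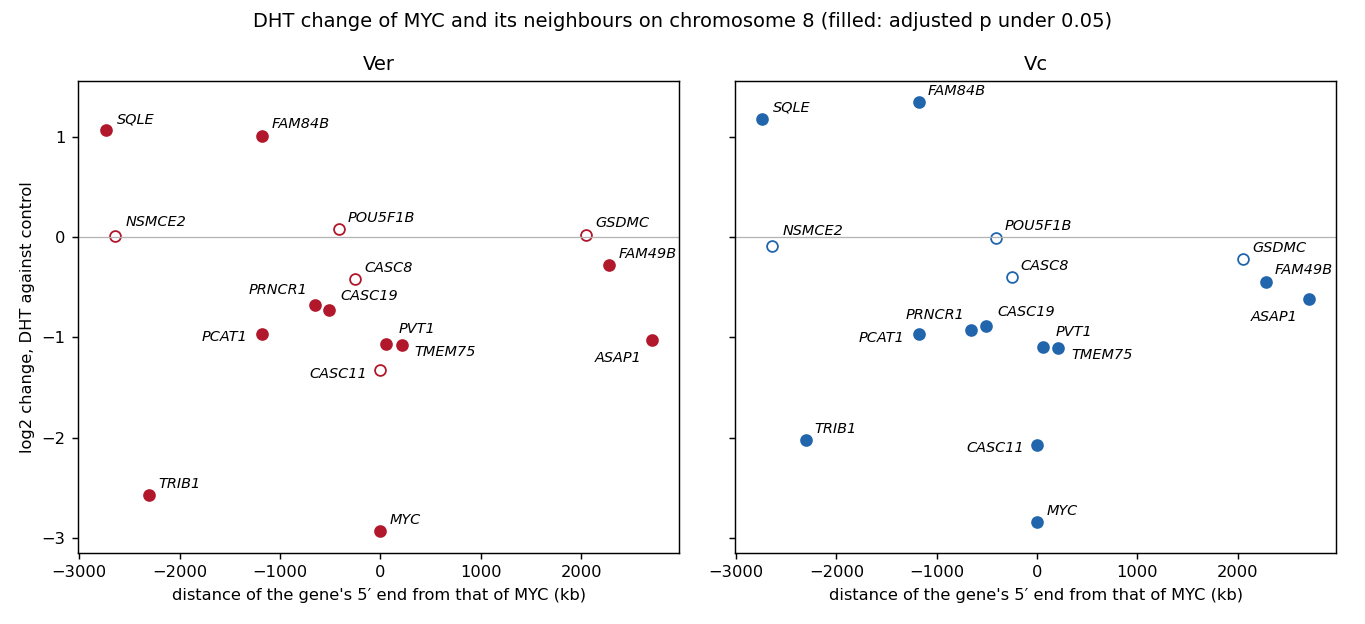
Log2 change with DHT against control on the vertical axis and distance of each gene's 5′ end from that of MYC in kb on the horizontal axis, for Ver (left, red) and Vc (right, blue); filled points have an adjusted p under 0.05. MYC is the lowest point in each line, with TRIB1 next at -2.57 in Ver, and SQLE and FAM84B lie above 0.

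The genes whose group means most resembled those of MYC were sought over the 8 group means of log2 CPM, among 12427 genes with a mean of at least 5 CPM. TRIM25, AP006333.2, CNNM1, TTF2 and PATZ1 had the highest Pearson r, from 0.997 to 0.998. TRIM25, a ubiquitin ligase gene, averaged 38.0 CPM in Ver with DHT, against 74.0 CPM in Ver control. PVT1 ranked 11 with an r of 0.996. The lowest r, from -0.997 to -0.993, belonged to ODC1, RHOU, ACAD8, ERRFI1 and CDS1. Among the network genes r with MYC was 0.91 for MXI1, 0.75 for MXD4, -0.01 for MGA, -0.42 for MAX, -0.51 for MNT, -0.90 for MLX and -0.92 for MXD1. All points share the same 8 groups, which DHT separates, so r is a description with no test. By Spearman's rho, 27 genes tied with MYC at 1 and 62 at -1.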

How the data were processed

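The authors deposited raw gene counts for each library, and a table of normalized signal used here for gene names; its values equalled the counts divided by size factors. Tools named in the submitters' processing notes are FastQC 0.11.7, Trimmomatic 0.36-5, HISAT2, SAMtools and HTSeq 0.11.1, with GRCh38; the file names give union counting without strand, which drops reads on exons of more than 1 gene. Reads in no gene (45.0 to 50.6% per library, lower with DHT) and ambiguous reads (7.09 to 8.55%) were set aside; their part in the results was not tested.

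Counts were fitted in edgeR 4.0.16 (R 4.3.3): filterByExpr by group, TMM, robust quasi-likelihood over 16 libraries in 8 groups (8 residual degrees of freedom), 13 comparisons, Benjamini-Hochberg over 22553 genes. SEs are Wald SEs. The fit was tested on simulated data. Alternatives were DESeq2 1.42.0, its size factors, library totals, no filter, only the groups compared, a replicate block and leaving out each library. Positions and exon lengths came from GENCODE 29.

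Members and lists were chosen with earlier results of these data known. Genes named were the members, 4 relatives, in each list the 3 with the smallest adjusted p for DHT in Vc, and the 5 most and 5 least like MYC. NCL, PCAT1, PRNCR1, CASC19, CASC11, TMEM75, ASAP1 and those so marked were chosen after their values were seen. 1 gene that this rule names is not reported here.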

Additional observations from a re-analysis of the deposited data

Results flagged for a closer look

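For several genes the test of the difference between the lines itself passed the threshold (edgeR quasi-likelihood, Benjamini-Hochberg). Values are Ver minus Vc on the log2 scale. For enzalutamide on top of DHT, MYC differed by 0.48 and was called in all 14 alternatives, and its neighbour TRIB1 by 0.67, called in all alternatives. MCM2 differed by 0.85, lost without Vc DHT plus enzalutamide replicate 1 (adjusted p = 0.143) or Vc DHT replicate 2 (0.0693). E2F1 differed by 0.83, lost with only the groups compared and without any library but Ver DHT plus enzalutamide replicate 2 or Ver DHT replicate 1 (0.08 to 0.433). THBS1 differed by 0.35, lost without replicate 2 of Vc DHT plus enzalutamide (0.0626) or of Vc DHT (0.0965). NDRG1 differed by -0.21, lost with library totals, with no low-count filter and without any library but Vc DHT plus enzalutamide replicate 1 or Ver DHT plus enzalutamide replicate 2 (0.0678 to 0.503). NOP58, a nucleolar RNA modification gene, differed by -0.53, lost without any library but Vc DHT replicate 2 (0.0523 to 0.332).

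For DHT, NCL differed by 0.53, MYBBP1A by 0.45, HSPD1 by 0.40, GNL3 by 0.39 and TRIB1 by -0.55, each called in every alternative. DDX18 differed by 0.42, NPM1 by 0.30 and DDX21 by 0.30, each lost without any 1 of 4 or 5 libraries, with adjusted p of at most 0.370 for DDX18, 0.153 for NPM1 and 0.365 for DDX21. ASAP1 differed by -0.41, lost with DESeq2, with no low-count filter, with only the groups compared and without any library but replicate 2 of Vc control or Vc DHT (adjusted p 0.06 to 0.304). MCM2 differed by -0.63, lost with DESeq2 and without any library but Vc control replicate 2, Vc DHT replicate 1 or Ver DHT replicate 2 (0.0591 to 0.254).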

How the results depend on the processing

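Over the 117 tests of network genes, 1278 alternative values gave 1228 with the same call status, and in the same direction where called. Among the others, 36 calls were lost, 14 were gained and 0 called values reversed. A DESeq2 value without an adjusted p was counted as not called, so some of the 1228 may be untested values. DESeq2 gave an adjusted p to 3314 genes for enzalutamide against control in Vc. Of 41 calls, 31 were kept in every alternative. Most lost or gained calls were small changes of MGA, MXD4 and MXD1. With no low-count filter, 1 network gene was called for Ver against Vc with both compounds. For the difference in the enzalutamide effect, 10 genes of all were called with only the groups compared and 2 with DESeq2, beside 5. The cause was not tested.

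Leaving out 1 library at a time, network genes called numbered 3 to 4 for both compounds against DHT in Vc, 1 to 2 for Ver against Vc with both compounds and 0 to 1 for the difference in the DHT effect. All genes called numbered 112 to 174 for enzalutamide in Ver, 47 to 62 in Vc, 2828 to 3191 for Ver against Vc in control medium, 300 to 529 for the difference in the DHT effect, 1 to 4 in the enzalutamide effect and 93 to 357 in the effect of enzalutamide on top of DHT. Beside these, all libraries gave 255, 121, 4252, 523, 5 and 291 genes. For both compounds against DHT in Vc, leaving out any library compared also gave fewer genes of all than the 5059 with all libraries. The same held for Ver against Vc with both compounds, where all libraries gave 4584 genes. Fewer calls in these comparisons were thus not particular to the network genes. The cause was not tested.

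Same-numbered libraries shared little deviation: over 28 pairs of groups its correlation ran from -0.122 to 0.102. Whether same-numbered libraries were made together is not in the labels, and these values cannot show it. With the replicate block, 7 network genes were called for DHT in Ver and 7 in Vc, as without it.

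With a 1 CPM minimum, 9 of the 10 genes most like or unlike MYC stayed in that list. By Spearman's rho 1 of 10 stayed, but 27 genes tied at 1 and 62 at -1. Row order set which of the tied genes were listed, so that count cannot show how the list depends on the measure.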
